A study of Ovis aries with 2 samples.

Results

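Layer 6 corticothalamic-like neurons of the sheep cerebral cortex were selected from a single-nucleus RNA sequencing series of 2 libraries. They made up 56 of the 2125 barcodes of the pre-processed library, none of the 905 barcodes of the post-processed library, and so 56 of 3030 in all. Both libraries came from cortex of wildtype adult Rambouillet sheep, female and 18 to 36 months old, in the same labelled batch and without treatment of the living animal. Nuclei of the pre-processed library were isolated without debris or red blood cell removal. The post-processed library is named as the product of that removal, although its treatment label carries the wording of the other library, so the groups follow the sample titles. Each condition is 1 library, so nothing here measures the spread between animals or preparations. No p-value is given, and every interval is a 95% interval that covers counting error only.

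Corticothalamic neurons are glutamatergic projection neurons of layer 6 that send axons back to the thalamus and collaterals to the thalamic reticular nucleus and to layer 4. In rodents and primates they are told from the intratelencephalic neurons, which project within the cortex, by transcription factors such as FOXP2 and TLE4. They are also told from the layer 6b neurons below them, which are descendants of the early subplate.

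A nucleus was taken as corticothalamic-like when its barcode had at least 2000 unique molecular identifiers (UMIs, each standing for 1 captured RNA molecule) and at least 4000 counts per 1000000 UMIs (CPM) of SYT1, a synaptic vesicle calcium sensor of neurons. The sum of SEMA3E, SYT6, NXPH2 and NPFFR2 had to reach 3 UMIs and 1000 CPM. Nuclei with 2000 CPM or more of NXPH1 and ALK together, or 1500 CPM or more of RELN, THSD7B, VIP and IGF1 together, were kept out as interneuron-like. The 56 members were 4.48% (3.40 to 5.78, exact Clopper-Pearson) of the 1249 barcodes with at least 2000 UMIs and 6.58% (5.01 to 8.46) of the 851 that also passed the SYT1 limit. With NXPH2 left out of the sum 35 nuclei passed, and with the limit on the sum at 2000 CPM 34 passed.

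The members were compared with the 662 other neurons, which passed the UMI and SYT1 limits and the interneuron limits but not the 4-gene limit. A second comparison used the 133 interneuron-gated neurons, which were over an interneuron limit. As a reference for free RNA in the droplets, 109 oligodendrocyte-gated nuclei were used, which had under 4000 CPM of SYT1 and at least 3 UMIs and 1000 CPM of the listed oligodendrocyte markers. Their SYT1 reached 3852 CPM, so they are not a clean background. Members held 411407 UMIs in all, from 2016 to 19934 per nucleus with a median of 5398. The medians were 6832 UMIs in other neurons, 6514 in interneuron-gated neurons and 3103 in oligodendrocyte-gated nuclei. The libraries shared 0 barcodes. Values refer to the 12652 gene symbols listed in the files as used here, which lie on chromosomes 1 to 8 and part of 9, and other markers of these cells, on the other chromosomes, were not analysed here.

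The 4 genes of the sum chose the members, so their levels describe the choice and are not a result. NXPH2, a secreted ligand of neurexins, had 454 UMIs in the members and at least 1 in 51 of 56 nuclei, with a lowest, median and highest value of 0, 961 and 4321 CPM. SEMA3E, a secreted semaphorin that binds plexin D1, had 417 UMIs in 49 nuclei, with 0, 845 and 2877 CPM. SYT6, a synaptotagmin, had 89 UMIs in 31 nuclei, and NPFFR2, a receptor of neuropeptide FF, had 55 UMIs in 19 nuclei. Most members were thus carried by SEMA3E and NXPH2, which were found together in 44 nuclei.

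All 4 genes were detected in 16 members, 3 in 14, 2 in 18 and a single gene in 8. That gene was NXPH2 in 7 nuclei and SEMA3E in 1. Among nuclei just inside the limit, the 8 nearest had sums of 1036 to 1142 CPM, and 6 of them had a FOXP2 UMI. The 8 nearest nuclei just outside had sums of 704 to 946 CPM, and 6 of them also had a FOXP2 UMI. The FOXP2 levels were not alike, however. They reached 33 UMIs or 3562 CPM in a nucleus just inside, and 6 UMIs or 1309 CPM in a nucleus just outside. By the sums, the limit cuts through a range of values, not a gap, although 513 of the 662 other neurons had none of the 4 genes at all.

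**Figure D1:**
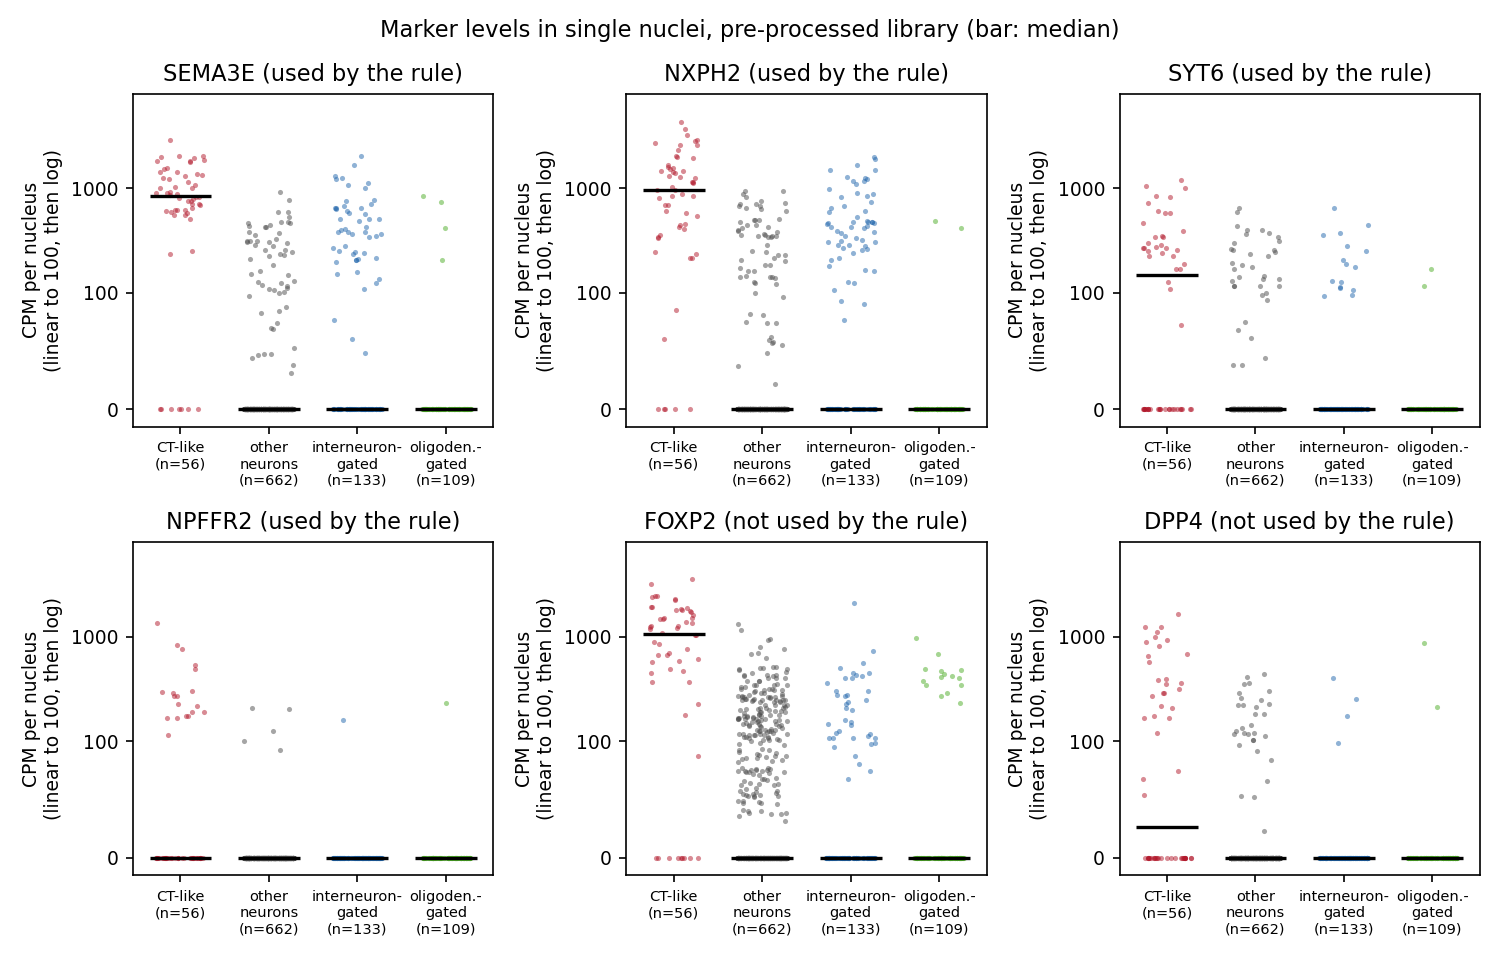
Level in each nucleus, in CPM on an axis that is linear to 100 and logarithmic above, of the 4 genes used by the rule and of FOXP2 and DPP4, which it did not use. Points are nuclei of the pre-processed library and bars are medians; the FOXP2 median is 1060 CPM in the 56 corticothalamic-like nuclei and 0 in each of the other groups.

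FOXP2 and DPP4, the markers of the label that the rule did not use, were both higher in the members. FOXP2, a forkhead transcription factor of deep-layer and thalamus-projecting neurons, was present at 1147 CPM (1046 to 1256) in the members and 62.2 CPM (55.8 to 69.2) in other neurons. Single members ranged from 0 to 3562 CPM with a median of 1060, and other neurons from 0 to 1309 CPM with a median of 0. The groups overlapped, but only 2 of the 662 other neurons reached the members' median.

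The FOXP2 ratio was 18.4-fold, or 4.20 on the log2 scale (4.0 to 4.41). After each nucleus was thinned to 2000 UMIs, FOXP2 was detected in 69.6% of members (55.9 to 81.2), 10.4% of other neurons and 11% of oligodendrocyte-gated nuclei. Without thinning the shares were 83.9%, 34.1% and 13.8%. The thinned share in members was above that of both other groups, which were close to each other. With SEMA3E left out of the sum the log2 ratio was 3.46.

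DPP4, a cell-surface peptidase that trims peptides, had 99 UMIs and 241 CPM (196 to 293) in the members against 9.59 CPM (7.17 to 12.5) in other neurons. The ratio was 25-fold, or 4.64 on the log2 scale (4.15 to 5.16). Its lowest, median and highest values were 0, 26.8 and 1651 CPM in members and 0, 0 and 444 CPM in other neurons. DPP4 was detected in 28 of 56 members, or 35.7% (23.4 to 49.6) after thinning, against 2.11% of other neurons and 0.917% of oligodendrocyte-gated nuclei. Of the 28 members with DPP4, 27 also had FOXP2 and 1 did not, while 8 members had neither gene. FOXP2 was found in 47 of all 56 members (83.9%), so a large overlap follows from that share. The DPP4 log2 ratio was 3.78 with SEMA3E left out of the sum, and 5.29 against the other neurons with none of the 4 genes.

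Across all genes with at least 50 UMIs over both groups, 222 of 5543 (4.01%) were at least 2-fold higher in the members than in other neurons and 560 (10.1%) at least 2-fold lower. These include genes of the rule, whose levels the choice of members shaped. Without them 218 of 5532 were higher and 556 lower. The median log2 ratio of the genes outside the rule was -0.05. The counts with the rule's genes included depended on the UMIs asked of a gene. With a minimum of 100 UMIs 136 genes were higher, with 20 UMIs 388, and after thinning 342 were lower. With NXPH2 left out of the sum 335 genes were higher.

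The corticothalamic list, without the rule's genes, had 8 of its 15 genes listed and 7 measured, of which 5 were at least 2-fold higher and 0 lower, with a median log2 ratio of 3.18. Beside FOXP2 and DPP4 these were GRIK3, SULF1 and TLE4. TLE4, a Groucho-family corepressor, had 557 CPM in members and 128 CPM in other neurons, a log2 ratio of 2.12 (1.89 to 2.33). SULF1, which removes sulfate from heparan sulfate outside the cell, had 214 CPM against 19.4 CPM (3.47, from 3.04 to 3.89).

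GRIK3, a kainate receptor subunit, had 1461 CPM (1346 to 1582) against 161 CPM (151 to 172), with single members from 0 to 4852 CPM and a median of 1489. It was found in 55 of 56 members, but it was also present elsewhere: interneuron-gated neurons had 720 CPM and oligodendrocyte-gated nuclei 703 CPM. TLE4 too was high in oligodendrocyte-gated nuclei, at 516 CPM. TBR1, a transcription factor of early-born cortical neurons, was under 2-fold higher at 0.82 on the log2 scale (0.06 to 1.45), and the collagen gene COL5A1 was at -0.68 (-1.03 to -0.36). RPRM was not measured, with 8 UMIs in members and 9 in other neurons. The list median was 2.43 when the interneuron limits were not applied.

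The layer 6b list gave no single direction. Of its 8 listed genes 5 were measured, with 2 at least 2-fold higher, 1 lower and a median of -0.08. LPAR1, a receptor for lysophosphatidic acid, was at 2.21 (1.75 to 2.64), with 143 CPM in members and 31.1 CPM in other neurons. It was higher in oligodendrocyte-gated nuclei, found in 81 of 109 with a median of 470 CPM, against a median of 76.2 CPM in members. NR4A2, an orphan nuclear receptor of subplate and claustrum neurons, was at 1.35 (0.81 to 1.84), with 94.8 against 37.4 CPM. MOXD1 had 1 UMI in members, a log2 ratio of -2.24 (-8.14 to -0.31), and the potassium channel subunit KCNAB1 was at -0.08 (-0.30 to 0.12). NXPH4 had 7 UMIs in members and 2 in other neurons, and CCN2, a defining layer 6b gene, had 0 in both. With so few genes the median moved with the setting, from -1.17 with NXPH2 left out of the sum to 0.64 with a gene minimum of 100 UMIs.

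Genes of intratelencephalic neurons were lower. Of 7 listed genes 6 were measured, 0 were at least 2-fold higher and 5 at least 2-fold lower, and the list median was -2.38. GLIS3, a zinc-finger transcription factor, had 21.9 CPM in members against 299 CPM in other neurons (-3.70, from -4.91 to -2.85). RASGRF2, an activator of Ras of upper-layer neurons, had 82.6 against 621 CPM (-2.89, from -3.44 to -2.42). RORB, the layer 4 nuclear receptor, had 3 UMIs in members (-2.18, from -4.69 to -0.83), and the kappa opioid receptor OPRK1 had 2 (-2.57, from -5.94 to -1.02).

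COL5A2, a fibrillar collagen gene, was at -1.21 (-2.35 to -0.38). THEMIS had 0 UMIs in members and 27 in other neurons. Of the extratelencephalic and near-projecting genes only POU3F1, with 1 UMI in members (-2.35, from -8.24 to -0.41), and ETV1, at -0.16 (-1.0 to 0.51), were measured.

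Beyond these lists, 11 genes were among the 15 highest. ADAMTS3, a procollagen protease, had 365 CPM in members against 22.4 CPM in other neurons, a log2 ratio of 4.02 (3.67 to 4.38), and was found in 39 of 56 members. CGNL1, a junction protein, had 122 against 4.88 CPM (4.62, from 3.93 to 5.37) but was found in only 21 members. KIT, the receptor of stem cell factor, had 117 against 7.96 CPM (3.87, from 3.25 to 4.50), while interneuron-gated neurons had 182 CPM.

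SLC35F1, a solute carrier family member, was the most abundant of the 15 highest genes by UMIs, at 2985 CPM against 452 CPM (2.72, from 2.62 to 2.82). MEGF11, a transmembrane protein with EGF repeats, had 1111 against 181 CPM (2.61, from 2.45 to 2.78), with 0, 975 and 2965 CPM as its lowest, median and highest values in members. The remaining genes were MCC, VAV2 (a guanine nucleotide exchange factor), EYA1 (a transcriptional coactivator and phosphatase), UST (a sulfotransferase), ARHGEF40 and IPCEF1, with log2 ratios from 2.82 to 3.11. UST was at 450 CPM in members and at 584 CPM in oligodendrocyte-gated nuclei.

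Several genes at the other end were close to absent from the members. NTNG1, which codes for the synaptic adhesion protein netrin-G1, had 1 UMI in the 56 members and 1902 in other neurons, or 344 CPM, a log2 ratio of -6.56 (-12.45 to -4.67). SH3RF2 had 0 UMIs in members and 710 in other neurons, which makes it at least 17.6-fold lower, counted against a floor of 3 UMIs over the members. ANKRD33 had 0 against 428 UMIs and was at least 10.6-fold lower. KCTD8, an auxiliary subunit of GABA-B receptors, had 12 UMIs or 29.2 CPM against 744 CPM (-4.61, from -5.63 to -3.87).

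LINGO2, a leucine-rich repeat protein of neurons, gave the largest absolute gap of the 15 lowest genes. It had 676 CPM (599 to 760) in members and 6890 CPM (6821 to 6960) in other neurons, a log2 ratio of -3.35 (-3.53 to -3.18). Its lowest, median and highest values were 0, 196 and 5331 CPM in members and 0, 5704 and 18786 CPM in other neurons. At or above 1000 CPM were 631 of the 662 other neurons and 13 of the 56 members. SLIT2, the secreted axon repellent that binds ROBO receptors, had 177 against 1703 CPM (-3.25, from -3.62 to -2.93). The remaining low genes were CERKL, IQCJ, KCNH8, COL19A1, IGFBP2, GLIS3, FREM1, CHN2 and LTBP1, with log2 ratios from -4.34 to -3.29, and of these CERKL and IGFBP2 had 1 UMI each in members.

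**Figure D2:**
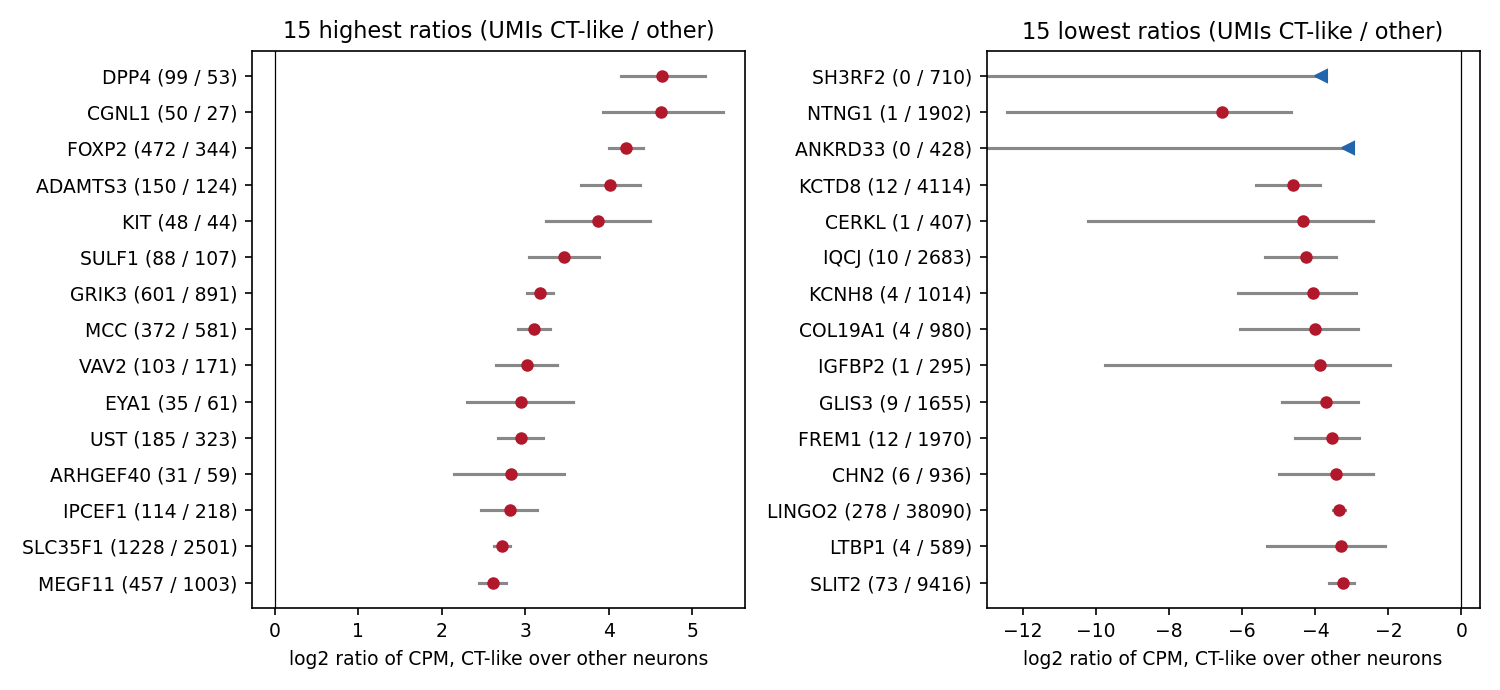
Log2 ratio of CPM in corticothalamic-like nuclei over other neurons for the 15 highest and 15 lowest genes outside the rule, with 95% counting intervals and with UMIs of both groups beside each name. Triangles mark the upper end of the interval for SH3RF2 and ANKRD33, which had 0 UMIs in the members; DPP4 is highest at 4.64.

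The gene family counts that follow stand beside 4.01% higher and 10.1% lower over all genes measured, the rule's genes included. Counts of 1 or 2 genes are not read as a family result. Among semaphorins, plexins and neuropilins, the axon guidance ligands and receptors, 11 genes outside the rule were measured. Of these 2 were at least 2-fold higher and 1 lower, with a median of -0.28. SEMA5B, a transmembrane semaphorin, had 897 CPM in members against 214 CPM in other neurons (2.07, from 1.89 to 2.24) and was found in 53 of 56 members. SEMA4A was at 1.48 (0.83 to 2.04). SEMA6A, another transmembrane semaphorin, had 9 UMIs in members (-2.34, from -3.55 to -1.48). The receptor subunit NRP2 stayed within 2-fold at 0.86 (0.38 to 1.29), as did the plexins PLXNC1 at -0.84 (-1.19 to -0.52) and PLXNA4 at -0.59 (-0.72 to -0.48). NRXN3, a neurexin, was near even at 0.32 (0.29 to 0.36).

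Glutamate receptor genes differed by subunit and not as a family: 11 were measured, 2 were at least 2-fold higher, 2 lower, with a median of -0.17. GRM3, a metabotropic receptor coupled to Gi proteins, had 1451 CPM in members against 410 CPM in other neurons (1.82, from 1.69 to 1.95). It was detected in all 56 members, from 223 to 3149 CPM, and its level in oligodendrocyte-gated nuclei was 2505 CPM. GRIK1, a second kainate receptor subunit, went the other way from GRIK3, with 348 against 1639 CPM (-2.23, from -2.49 to -2.0). GRIN3A had 1 UMI in members (-2.44, from -8.34 to -0.51), and the AMPA receptor gene GRIA1 was even at 0.10.

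Of 8 GABA receptor genes 0 were at least 2-fold higher and 2 lower, with a median of -0.37. These were the alpha subunits GABRA2, at 163 against 638 CPM (-1.96, from -2.34 to -1.62), and GABRA4, at 102 against 301 CPM (-1.54, from -2.04 to -1.12). The beta subunit GABRB1 was at 0.11 (0.01 to 0.21).

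Potassium channel genes gave 5 higher and 11 lower of 39 measured, with a median of -0.05. KCNMB2, an auxiliary subunit that inactivates large-conductance calcium-activated channels, had 1327 CPM in members against 222 CPM in other neurons (2.58, from 2.43 to 2.73), and interneuron-gated neurons had 1420 CPM. KCNA6, a Kv1 subunit, was at 1.38 (1.10 to 1.65). KCNK3 and KCNK10, both of the leak channel family, were at 1.22 (0.25 to 2.01) and 1.21 (0.85 to 1.53).

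Lowest of the channels were KCNH8 at -4.07 (-6.12 to -2.88), the Kv3 gene KCNC2 at -2.67 (-3.59 to -1.97) and KCND2, the Kv4 subunit of the transient A-type current, at -2.27 (-2.47 to -2.08). KCND2 had 547 CPM in members and 2636 CPM in other neurons. Calcium and sodium channel genes had 0 of 12 higher and 1 lower, with a median of -0.41, beside 4.01% and 10.1% of all genes measured. The lower gene was SCN9A, with 1 UMI in members. The T-type calcium channel gene CACNA1I was at 0.89 (0.59 to 1.16).

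Receptors of neuromodulators gave 2 higher and 5 lower of 14 measured, with a list median of -0.38, whether or not genes at 0 UMIs took their bound. The neuropeptide Y receptor NPY5R, with 10 UMIs, was at 1.11 (-0.08 to 2.02) and the alpha-1A adrenergic receptor ADRA1A at 1.08 (0.48 to 1.6). The muscarinic receptor CHRM5 and the adrenergic receptor ADRA1B had 0 UMIs in members and were at least 3.94-fold and at least 2.68-fold lower.

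**Figure D3:**
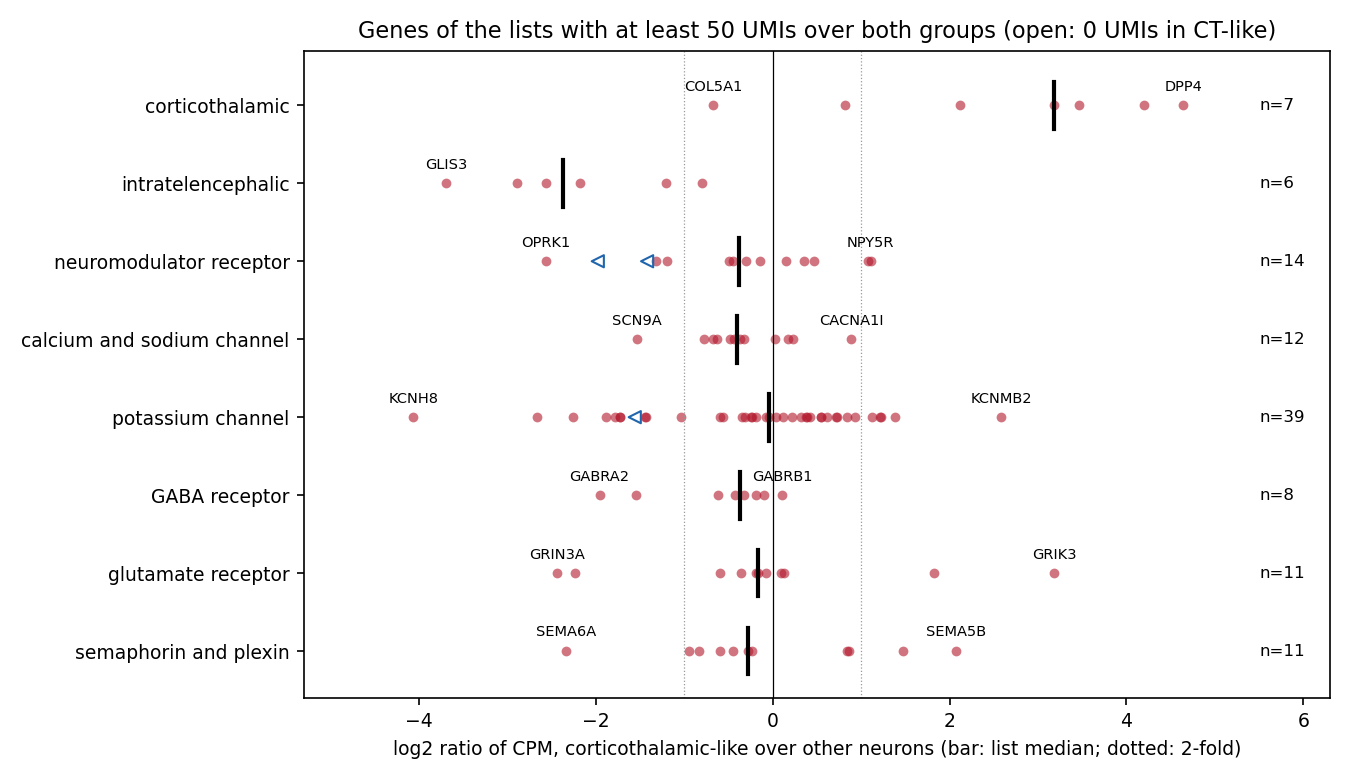
Log2 ratio of CPM, corticothalamic-like over other neurons, for each measured gene of 8 lists, with the list median as a bar and 2-fold as dotted lines. Open triangles are genes with 0 UMIs in the members, placed at their bound; the corticothalamic median is 3.18 and the intratelencephalic median is -2.38.

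General genes of glutamatergic neurons did not separate the members from other neurons: 0 of 4 were past 2-fold in either direction, with a median of -0.11. CAMK2A, a kinase of excitatory synapses, was at -0.38 (-0.53 to -0.25), and GRIN2B, an NMDA receptor subunit, at -0.36 (-0.44 to -0.27). Of the interneuron list, ERBB4 had 246 CPM in members, 1011 CPM in other neurons and 21862 CPM in interneuron-gated neurons. LHX6, SST, VIP, DLX1, DLX2 and DLX5 were at 0 in members. All other neurons together had only 10 UMIs of LHX6, 29 of SST, 26 of DLX1, 4 of DLX2 and 4 of DLX5. At such counts 0 in members carries little, and the rule had kept interneuron-like nuclei out. VIP was one of the genes the rule kept low.

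Summed oligodendrocyte and astrocyte markers were lower in members than in other neurons. Summed microglial, endothelial and oligodendrocyte precursor markers were higher. Oligodendrocyte markers summed to 53.5 CPM in members and 101 CPM in other neurons, and astrocyte markers to 129 and 231 CPM. Microglial markers summed to 119 and 90.8 CPM, and endothelial markers to 36.5 and 26.6 CPM. Of 4 measured microglial genes 0 were at least 2-fold higher and 1 lower, with a median log2 ratio of 0.31. INPP5D had 65.6 against 35.1 CPM (0.93, from 0.26 to 1.49). C1QA, C1QB, C1QC and VWF were at 0 in members. They had only 8, 6, 6 and 23 UMIs in all other neurons, so these zeros carry little. Oligodendrocyte precursor markers summed to 1395 and 828 CPM. Of that sum 1111 CPM was MEGF11, while PDGFRA, the defining receptor of precursors, was at 12.2 and 15 CPM. OLIG2 was at 0 in both groups.

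Against interneuron-gated neurons, 217 of 3311 genes (6.55%) were at least 2-fold higher in the members and 352 (10.6%) at least 2-fold lower. Without the rule's genes, 213 of 3301 were higher and 347 lower. In the corticothalamic list 5 of 6 measured genes were higher and 0 lower, with a median of 2.24. Interneuron-gated neurons also held 23 nuclei that passed the 4-gene limit. These 23 had NXPH2 at a median of 889 CPM and SEMA3E at 577 CPM, as their passing that limit requires, but FOXP2 was detected in 6 of them, and 2 nuclei carried 30 of their FOXP2 UMIs.

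The members were not uniform, and 3 subsets were described after their values were seen. In the first, 7 nuclei had NXPH2 as the only gene of the sum, at 1861 CPM. In them FOXP2, MEGF11, ADAMTS3, UST, KIT, SULF1 and CGNL1 had 0 UMIs, of 44070 UMIs in all. The second subset was 7 other nuclei with at least 1000 CPM of LINGO2 and the third the remaining 42. Of the 9 members without FOXP2, 7 were thus the NXPH2-only nuclei.

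Compared with the remaining 42, the NXPH2-only nuclei had at least 21.6-fold less FOXP2, at least 20.03-fold less MEGF11 and at least 14.1-fold less MEIS2, a homeobox transcription factor. KCNMB2 had 1 UMI, a log2 ratio of -5.58 (-11.47 to -3.68). They shared other genes with the rest: GRIK3 was at 2383 CPM and found in 7 of 7, GRM3 at 2587 CPM in 7 of 7, and COL9A1, a collagen gene picked out after its values were seen, at 545 CPM in 6 of 7. TAFA2, which codes for a secreted chemokine-like protein, had 3994 CPM there against 62.6 CPM in the remaining 42 (5.96, from 5.31 to 6.76), and 2058 CPM in other neurons.

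1 of these 7 nuclei, with 2626 UMIs, had 29 UMIs of ERBB4 and 31 of GRIK1, or 11043 and 11805 CPM. No other member reached 2000 CPM of ERBB4. Of the markers of the label, the 7 NXPH2-only nuclei had NXPH2, which chose them, and DPP4 in 1 of them. SEMA3E and SYT6 were at 0 by the definition of the subset, and FOXP2 was at 0 too. The name corticothalamic-like is thus poorly borne out for these 7. GRIK3, which they shared with the rest, was also at 720 CPM in interneuron-gated neurons. Their LINGO2 was at 2020 CPM, against 109 CPM in the remaining 42. Their median depth was 2626 UMIs, against 5398 in the remaining 42, but they ranged from 2016 to 19934 UMIs. The nucleus with 19934 UMIs was the deepest of all members. It had 0 UMIs of FOXP2, MEGF11, ADAMTS3 and UST, as did the next deepest of the subset, with 9210 UMIs. These nuclei held most of the subset's 44070 UMIs and so weigh most in its CPM values. The part of depth in these absences was not tested beyond the bounds given.

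The 7 nuclei with high LINGO2 had SEMA3E in 7 of 7, as did every member outside the NXPH2-only subset. They had less FOXP2 than the remaining 42. LINGO2, which chose them, was at 2450 CPM against 109 CPM in the remaining 42. SLIT2 was at 864 against 32.9 CPM and KCTD16, a GABA-B receptor auxiliary subunit, at 1712 against 36.2 CPM. FOXP2 was at 393 CPM in 6 of 7 nuclei, against 1472 CPM in 41 of 42, a log2 ratio of -1.88 (-2.55 to -1.33). TLE4 was at 173 against 695 CPM (-1.95, from -3.03 to -1.14). Their median depth was 10222 UMIs, and whether some hold RNA of a second nucleus was not tested by a doublet caller.

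The remaining 42 nuclei were the largest subset. SEMA3E was found in 42 of 42, but it is a gene of the rule. It was found in all 49 members outside the NXPH2-only subset, so the count is not particular to these 42. The split itself did not require SEMA3E of them. MEGF11 was found in 42 of 42, FOXP2 in 41, KCNMB2 in 41, TLE4 in 39 and UST in 38, while NTNG1 had 0 UMIs. Leaving out both smaller subsets moved the FOXP2 log2 ratio against other neurons from 4.20 to 4.56. Those subsets had been seen to hold less FOXP2, so this rise follows from leaving them out.

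**Figure D4:**
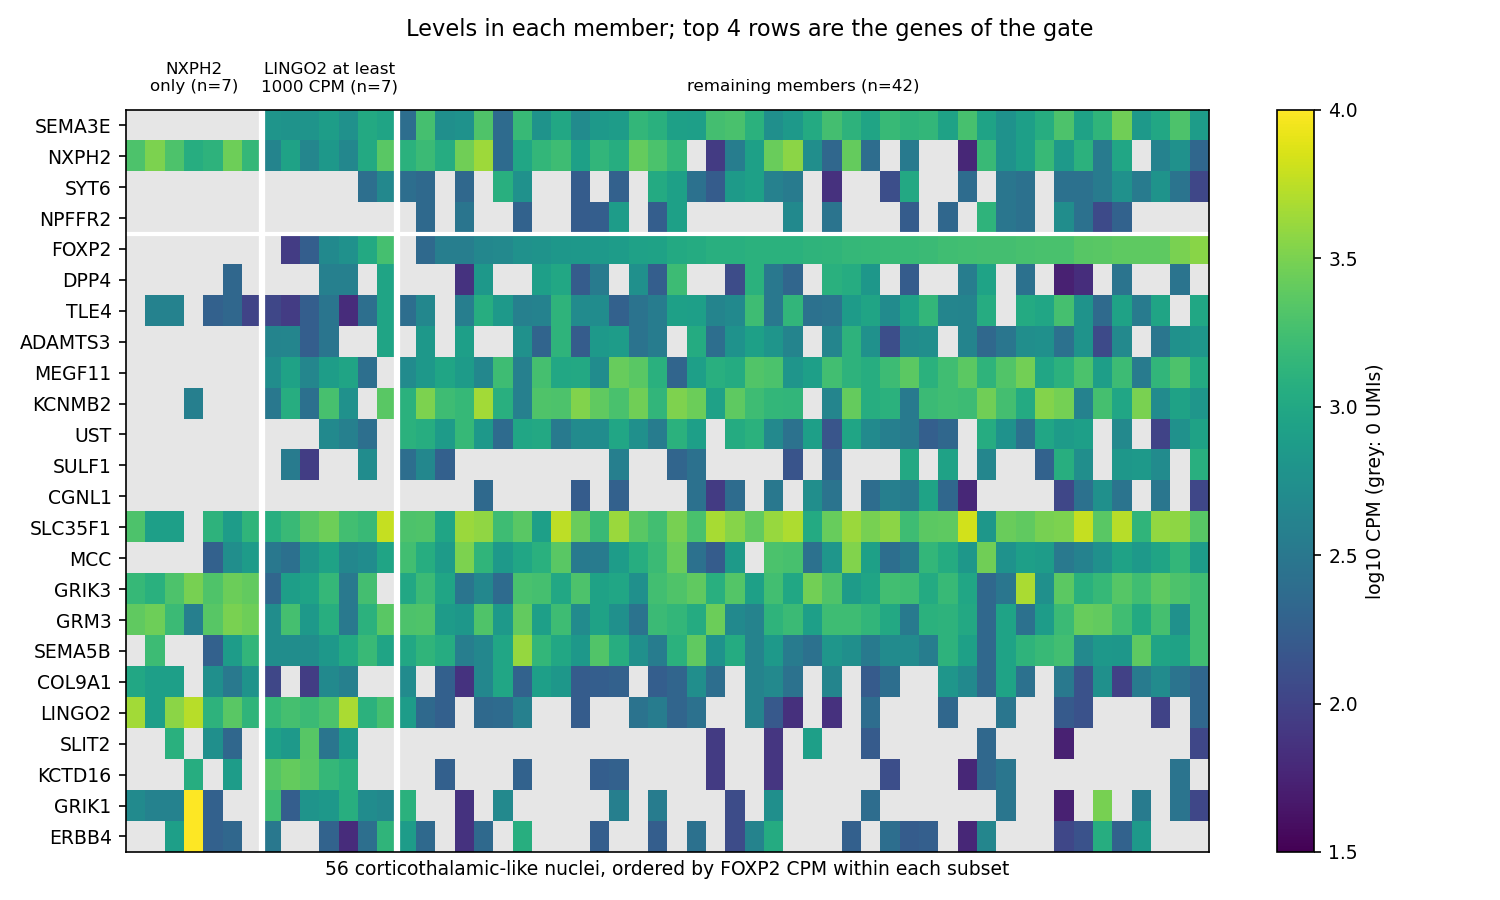
Level of 24 genes in each of the 56 members, as log10 CPM with grey for 0 UMIs, in columns split into the 3 subsets and ordered by FOXP2. The 7 NXPH2-only nuclei are grey for FOXP2 and MEGF11 but not for GRIK3, and LINGO2 is high in the 2 smaller subsets.

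Among the 49 members outside the NXPH2-only subset, NXPH2 had more UMIs than SEMA3E in 20 nuclei, fewer in 25 and as many in 4. This split too was made after the values were seen, and it used 2 genes of the rule. FOXP2 was at 1003 CPM (842 to 1186) where NXPH2 led and 1466 CPM (1309 to 1637) where SEMA3E led. MCC went the other way, at 1501 CPM (1302 to 1721) against 631 CPM (529 to 746). NR4A2 was at 168 CPM (107 to 253) against 64.9 CPM (35.5 to 109), and CGNL1 at 80.5 CPM (40.2 to 144) against 181 CPM (129 to 247). The median depth was 5332 UMIs where NXPH2 led and 8729 where SEMA3E led, and its part in these differences was not tested.

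**Figure D5:**
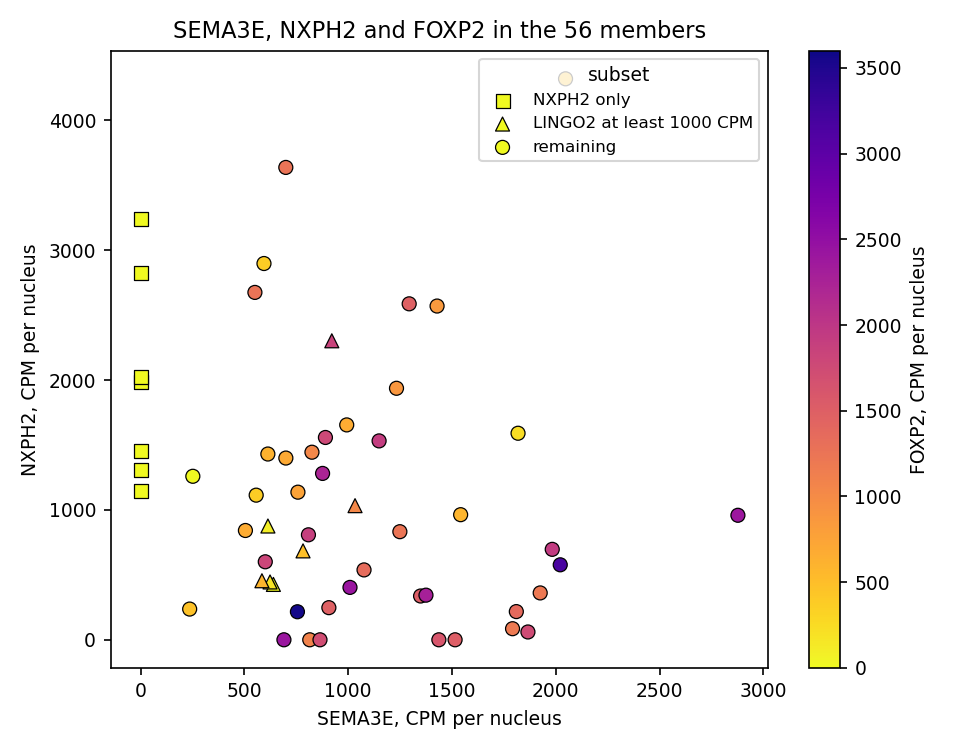
SEMA3E against NXPH2 in CPM for each of the 56 members, coloured by FOXP2 in CPM and with a marker for each subset. The 7 NXPH2-only nuclei lie on the vertical axis with FOXP2 at 0, and the nucleus with the highest SEMA3E, 2877 CPM, has NXPH2 at 959 CPM.

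Nuclei of the pre-processed library were also clustered without the 11 genes of the rule. Of the 56 members 52 (92.9%, from 82.7 to 98.0) fell into 1 of 16 clusters. That cluster held 150 nuclei, and the other 98 were 57 other neurons, 3 interneuron-gated neurons, 33 nuclei under 2000 UMIs and 5 with SYT1 under 4000 CPM. The members were 34.7% of that cluster, but 68.9% of the one that held most of them at the finer resolution of 2.0, 79.6% with 15 principal components and 83.0% with the rule's genes kept.

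The 57 other neurons in it had GRIK3 at 1060 CPM and in 55 of 57 nuclei, near the level of the members, but FOXP2 at 129 CPM, NXPH2 at 243 CPM and LINGO2 at 2737 CPM. The 33 shallow nuclei had FOXP2 at 565 CPM and GRIK3 at 1522 CPM, at a median of 1397 UMIs. At that finer resolution 42 members shared a cluster of 61 nuclei. It took in 38 of the 42 nuclei of the largest subset, 4 of the 7 with high LINGO2 and none of the NXPH2-only nuclei. A cluster of 87 held 6 of the 7 NXPH2-only nuclei and 3 with high LINGO2.

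The post-processed library held no nucleus of this kind. Of its 905 barcodes 120 had at least 2000 UMIs, and 0 of those reached 4000 CPM of SYT1, with a highest value of 754 CPM, so the 4-gene limit was never the deciding step. Read as at most 3 counts, 0 of 120 allows a share of up to 2.5%, a limit set by 3 divided by 120 and not a Clopper-Pearson bound. In the pre-processed library 851 of 1249 barcodes of that depth passed the SYT1 limit. Preparation, library and depth cannot be told apart here as sources of that difference.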

How the data were processed

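The members and gene lists were chosen with earlier results of these data known, so no list is independent evidence. The deposited files hold whole-number UMI counts per gene and barcode, without normalization, per the values in the files. DRAGEN is named in the submitters' processing notes, without a version. Build, annotation, the strand setting of the counting and the rule for calling barcodes are not given in these sources, and coordinates are left out. The study states about 5000 nuclei per condition, and the files hold 2125 and 905 barcodes with 9580441 and 794203 UMIs over the listed genes. By the RefSeq table of the ARS-UI_Ramb_v3.0 assembly, 9847 of 21300 protein-coding genes (46.23%) are listed.

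CPM was computed over listed genes from summed counts of each group. Log2 ratios have 0.5 counts added and conditional binomial intervals, sums have Poisson intervals, and shares have Clopper-Pearson intervals. All intervals cover counting error only. Genes needed 50 UMIs over both groups. Named genes were those of the rule, every measured gene of the corticothalamic, layer 6b and intratelencephalic lists, the 15 highest and 15 lowest ratios among genes with a symbol and found in 25% of nuclei of the higher group, the extremes of the other lists, and the 10 most abundant genes; some of these are not reported here. No doublet caller was run, and leaving out the 10% of nuclei with most UMIs was tried instead. The ratio script was tested on simulated data. Clustering used scanpy 1.11.5 under Python 3.11.15, with scipy 1.17.1 for intervals. Alternatives included other limits, gates, gene minimums, thinning and weights, and 2 were added after the data were seen: leaving out the NXPH2-only members, and leaving out also those with high LINGO2.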

Additional observations from a re-analysis of the deposited data

Results flagged for a closer look

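In the post-processed library, which gave no member, 4 genes of these neurons were above their level in the 281 nuclei of the pre-processed library with under 1000 CPM of SYT1, with intervals that did not overlap. SEMA3E was at 161 CPM in the 120 post-processed barcodes with at least 2000 UMIs, against 9.93 CPM, but it was found in 9 barcodes and 58 of its 86 UMIs lay in 1 of them. The 77 oligodendrocyte-gated barcodes among the 120 held 28 of the 86. FOXP2 was at 340 CPM against 61.5 CPM and was spread over 83 of the 120 barcodes, with at most 9 UMIs in any and 119 of its 182 UMIs in oligodendrocyte-gated barcodes. DPP4 was at 26.2 CPM against 4.96 CPM, from 14 UMIs, 8 of them in oligodendrocyte-gated barcodes. GRIK3 was at 436 CPM against 265 CPM, and 230 of its 233 UMIs were in the oligodendrocyte-gated barcodes. The oligodendrocyte-gated nuclei of the pre-processed library had more GRIK3 than 436 CPM, as given above. The direction for GRIK3 thus depended on the group it was set against. MEGF11 went the other way, at 28 CPM against 168 CPM. SYT6 and NPFFR2 had 0 UMIs in that library, and SYT1 was at 58.0 CPM against 335 CPM.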

How the results depend on the processing

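No paired analysis was possible because each group holds 1 library and no replicate. No value past 2-fold changed sign, but the layer 6b median, which was within 2-fold, did. The number of members was 34 with the 4-gene limit at 2000 CPM and 35 without NXPH2. The FOXP2 log2 ratio, 4.20, was 3.46 without SEMA3E in the sum, 3.95 without SYT6, 3.84 without the interneuron limits, 3.98 with nuclei weighted equally and 4.56 without the NXPH2-only and high-LINGO2 members. The DPP4 ratio was 3.78 without SEMA3E, 4.11 without NXPH2 and 5.29 against neurons with 0 UMIs of the 4 genes. The corticothalamic median was 2.98 at 2000 CPM, 2.92 without NXPH2, 2.43 without the interneuron limits, 2.90 with equal weights, 2.85 thinned and 3.54 against neurons with 0 UMIs. The layer 6b median was -0.70 at 2000 CPM, -1.17 without NXPH2, 0.55 without the interneuron limits, 0.63 thinned, 0.64 at a minimum of 100 UMIs, -0.64 without NXPH2-only members and -0.70 without both subsets. The intratelencephalic median ranged from -3.51 to -1.84. With the rule's genes included, genes at least 2-fold higher numbered 335 without NXPH2, 388 at a minimum of 20 UMIs and 136 at 100. Lower genes numbered 342 after thinning. The share of members in 1 cluster was 75% at resolution 2.0, 78.6% with the rule's genes kept and 76.8% with 15 components. Without thinning, the share of members with FOXP2 was 83.9% and with DPP4 50%, and for 25 of 57 named genes the unthinned share lay outside the interval of the thinned one. The cause was not tested. Genes with few UMIs, such as MOXD1 and POU3F1, are limited by depth.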

Other observations

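The most abundant transcripts of the corticothalamic-like nuclei came from long synaptic and adhesion genes, much as in other neurons. PTPRD, a receptor phosphatase that organises synapses, took 2.07% of the members' UMIs and 2.07% of those of other neurons. KCNIP4, a partner of Kv4 channels, took 2.01% and 2.30%, and the neurexin gene NRXN3 1.6% and 1.28%. ADGRB3, SYT1, NEGR1, NLGN1 and CNTNAP2 were also among the 10 most abundant, and CADM2, a cell adhesion gene, took 0.84% in members against 1.42%.

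Immediate early genes, which neurons switch on after activity or handling, gave 2 of 8 measured genes at least 2-fold higher and 0 lower. Over all genes measured the shares were 4.01% and 10.1%. The list median log2 ratio was 0.69. ARC, which codes for a synaptic plasticity protein, was at 1.41 (0.64 to 2.07) and NR4A1, a nuclear receptor, at 1.15 (0.75 to 1.52), while FOS was at 0.29 (-1.31 to 1.38). The summed level of the list was 486 CPM in members, 298 CPM in other neurons and 136 CPM in interneuron-gated neurons.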
